A study of Mus musculus with 6 samples.

Results

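The genes whose symbol begins with Nduf encode the nuclear subunits of respiratory complex I and a set of factors that assemble it. By that rule, with 1 probe set per gene, 42 of the 22180 measured genes were members, namely 6 core subunits, 26 accessory subunits, 8 assembly factors with Ndufaf symbols and 2 other genes. Expression was read on 6 microarrays of mouse acute myeloid leukaemia cells, all driven by the fusion oncogene MLL-AF9 and all of the C57BL/6J background. The 3 Evi1 Tg arrays came from leukaemias of Evi1-transgenic mice and the 3 WT arrays from leukaemias of wild-type mice, with 10000 untreated GFP+ cells sorted per sample. Evi1 is a transcription factor encoded by Mecom. The sources used here give neither the promoter or form of the transgene nor the number of animals behind a group. The p-values therefore reflect the spread of these samples alone, which may be technical.

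Complex I takes electrons from NADH, passes them along a chain of iron-sulphur clusters to ubiquinone and pumps protons across the inner mitochondrial membrane. It is L-shaped. The N module at the tip of the matrix arm oxidises NADH, the Q module below it reduces ubiquinone, and the membrane arm is built from ND1, ND2, ND4 and ND5 modules, each named after a subunit encoded by mitochondrial DNA. Core subunits are those shared with bacteria and carry the catalytic chemistry, accessory subunits surround them, and assembly factors help to build the enzyme without remaining in it. Leukaemia cells of the myeloid lineage are known to depend on respiration to a varying degree.

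The median intensity per array lay between 51.6 and 55.4. Of the 17 listed markers of myeloid leukaemia cells, 17 lay above the background intensity of 75.1, which is the 90th percentile of 72 measured genes that are silent in blood cells. Lymphoid and erythroid markers lay below it in all but 1 case, Thy1, as did 7 of 9 markers of endothelium and stroma. Markers of mast cells, basophils and eosinophils had differences below 0 in 9 of 9 cases, with summed intensities of 401 to 448 in Evi1 Tg and 382 to 1243 in WT, and 7 of the 9 means were below background, among them Cpa3, Fcer1a and Epx. Megakaryocyte markers summed to 257 to 339 in Evi1 Tg and 254 to 603 in WT. Of these 4 markers, 3 had means above background, Gp9 (0.21 on the log2 scale), Pf4 (-0.98) and Ppbp (-0.99). Itga2b (0.078) lay below it. Pf4 had 52.7, 76.4 and 74.1 in Evi1 Tg and 155, 208 and 70.5 in WT. Ppbp had 45.1, 103 and 62.0 in Evi1 Tg and 168, 229 and 58.7 in WT. Cpa3, a mast cell protease, had 26.3, 29.9 and 26.1 in Evi1 Tg and 25.1, 621 and 239 in WT, a log2 difference of -2.50, so that WT 2 and WT 3 alone were above background. Of the 17 myeloid markers, 7 had an unadjusted p under 0.05 (41.2%, against 10.3% of all genes) and no overlap between the groups, with 0 called by limma. Higher in Evi1 Tg were Mpo (2.80 on the log2 scale), Kit (1.22), Meis1 (0.85) and Elane (0.44), and lower were Csf3r (-0.55), Csf2ra (-0.49) and Ptprc (-0.39). The part of these cells in the results below was not tested. Mecom itself was below background in both groups, with intensities of 40.7, 37.7 and 37.5 in Evi1 Tg and 39.4, 37.4 and 34.1 in WT, so this gene does not check the labels. Proliferation genes set WT 3 apart from the other WT arrays. Their median deviation from the 6-array mean was 0.25, 0.29 and 0.34 log2 units in Evi1 Tg 1, 2 and 3, against -0.57, -0.67 and 0.33 in WT 1, 2 and 3.

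None of the 42 Nduf genes passed the test between Evi1 Tg and WT. By limma with Benjamini-Hochberg adjustment over all genes, 0 members were called at an adjusted p under 0.05, where 0.113% of all genes were called. At an unadjusted p under 0.05 there was 1 member, Ndufaf3, or 2.38% of members, against 10.3% of all genes (4.5% higher and 5.8% lower). The groups did not overlap in 3 members, 1 higher and 2 lower in Evi1 Tg, which is 7.14% of members against 14.6% of all genes (7.08% higher and 7.47% lower). The members' shares were thus no larger than those of the whole array. With bulk RNA, fewer cells of a type and less RNA per cell cannot be told apart. Differences lay below 0 in 29 of 42 members, or 69.0%, against 46.5% of all genes, and their median was -0.090 log2 units (Evi1 Tg minus WT) against 0.012 over all genes. Among genes above background, 49.6% lay below 0, with a median of 0.0020. Of these genes 17.9% had an unadjusted p under 0.05, and the groups did not overlap in 19.3%. The 37 members above background had 27 differences below 0 and a median of -0.10. Among the 42 members only Ndufc2 differed by more than 0.5 log2 units.

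**Figure D1:**
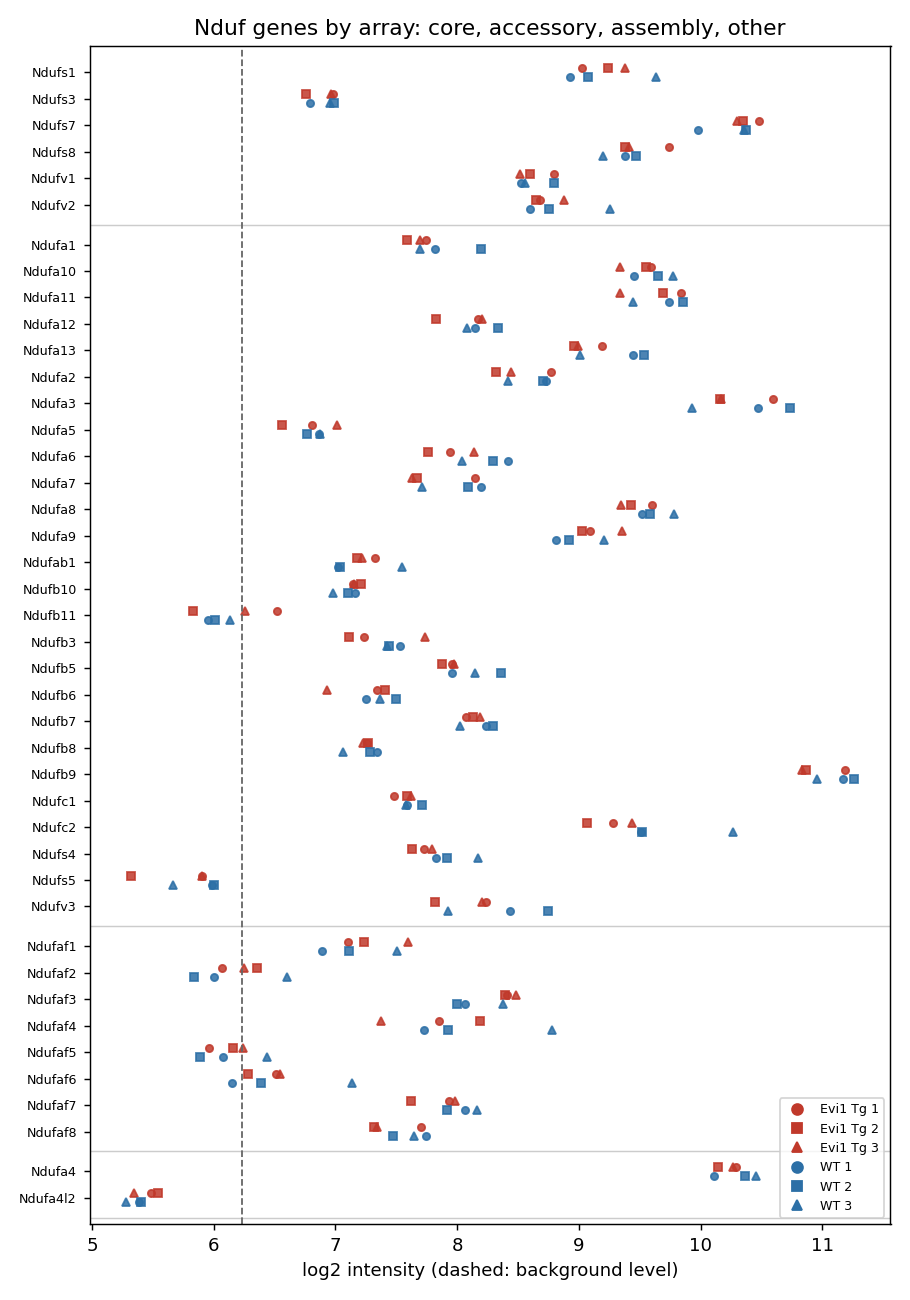
Log2 intensity (horizontal axis) of each of the 42 Nduf genes on the 3 Evi1 Tg arrays (red, upper row of each gene) and the 3 WT arrays (blue, lower row), with marker shape giving the replicate number and the dashed line the background level. The groups overlap in 39 genes, and 5 genes (Ndufs5, Ndufb11, Ndufaf2, Ndufaf5 and Ndufa4l2) have a mean below background.

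These counts moved with single arrays. Without WT 3, 4 members were lower and 2 were higher in Evi1 Tg at an unadjusted p under 0.05 (14.3% of members, 16.5% of all genes), and groups did not overlap in 9 members on the lower and 4 on the higher side (31.0% of members, 32.3% of all genes). Those with the unadjusted p were Ndufa13, Ndufa6, Ndufv3, Ndufa1, Ndufaf2 and Ndufaf3, and 0 members were called, the smallest limma adjusted p being 0.0741 for Ndufaf3. Without WT 1 there were 3 lower members at an unadjusted p under 0.05, without Evi1 Tg 3 there were 2, and without Evi1 Tg 1 or WT 2 there was 1 each, with 0 higher in these 4 fits. The shares of members and of all genes at that p were 7.14% and 7.73% in the fit that left out WT 1, 4.76% and 10.6% in that without Evi1 Tg 3, 2.38% and 7.48% with Evi1 Tg 1 left out, and 2.38% and 9.17% with WT 2 left out. The groups did not overlap in 7 lower and 1 higher member without Evi1 Tg 1, in 5 and 2 without WT 1, in 4 and 2 without Evi1 Tg 3, and in 2 and 2 without Evi1 Tg 2. Members made up a smaller share than all genes in each of these 4 fits, at 19.0% against 22.5% (Evi1 Tg 1 left out), 16.7% against 22.9% (WT 1 left out), 14.3% against 27.2% (Evi1 Tg 3 left out) and 9.52% against 21.2% (Evi1 Tg 2 left out).

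The core subunits differed least. In the N module, Ndufv1, which binds NADH and flavin mononucleotide, had intensities of 445, 388 and 366 in Evi1 Tg and 368, 443 and 376 in WT, which amounts to 0.014 on the log2 scale (n = 3 per group, SE 0.11, adjusted p = 0.986 by limma). The 2 groups covered nearly the same range. Ndufs1, which carries several iron-sulphur clusters, had 522, 603 and 664 in Evi1 Tg and 486, 539 and 796 in WT, with a difference of 0.0010 (SE 0.19). Both the lowest and the highest of these values belonged to WT. Ndufv2, an iron-sulphur subunit next to Ndufv1, had 410, 401 and 469 in Evi1 Tg and 387, 432 and 611 in WT, with a difference of -0.14 (SE 0.17).

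In the Q module, Ndufs7, which holds the iron-sulphur cluster that hands electrons to ubiquinone, had 1427, 1303 and 1260 in Evi1 Tg and 1009, 1327 and 1313 in WT, a log2 difference of 0.14 (SE 0.13). WT 1 was the low array, and the other 5 overlapped. Ndufs8, another iron-sulphur subunit, had 855, 664 and 681 in Evi1 Tg and 665, 710 and 589 in WT, with a difference of 0.16 (SE 0.13), where Evi1 Tg 1 was the high array. Ndufs3, a subunit without an iron-sulphur cluster, had 126, 108 and 125 in Evi1 Tg and 111, 127 and 124 in WT, with a difference of -0.012 (SE 0.10). Over the 6 core subunits 4 differences lay above 0 and 2 below, with a median of 0.0074, and the smallest limma adjusted p was 0.770. The 95% intervals allowed differences from -0.55 (Ndufv2) to 0.46 (Ndufs8).

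Accessory subunits had differences below 0 in 21 of 26 cases, with a median of -0.13 log2 units and 0 members called by limma (0 at an unadjusted p under 0.05). Ndufc2, a small subunit of the membrane arm, had intensities of 621, 537 and 692 in Evi1 Tg and 730, 734 and 1231 in WT. All 3 Evi1 Tg arrays lay below all 3 WT arrays, and WT 3 stood far above WT 1 and WT 2. The log2 difference was -0.51 (SE 0.22, 95% interval -1.02 to 0.0051, limma adjusted p = 0.491), and -0.26 without WT 3. Ndufs4, an N module subunit whose loss causes Leigh syndrome in humans and a similar disease in mice, had 212, 198 and 221 in Evi1 Tg and 227, 242 and 288 in WT. The groups did not overlap, though Evi1 Tg 3 and WT 1 were close to each other. The difference was -0.26 (SE 0.11, 95% interval -0.52 to 0.0064, limma adjusted p = 0.499) and -0.16 without WT 3.

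Among the assembly factors Ndufaf3 was the member with the smallest p. Ndufaf3, which works with Ndufaf4 at an early step of joining the Q module to the membrane arm, had intensities of 341, 336 and 358 in Evi1 Tg and 267, 256 and 333 in WT. All Evi1 Tg arrays lay above all WT arrays, with WT 3 just below Evi1 Tg 2. The log2 difference was 0.28 (SE 0.12, 95% interval 0.010 to 0.56, adjusted p = 0.466 by limma). It was 0.40 without WT 3, where the adjusted p was 0.0741, and over 13 alternatives the adjusted p ranged from 0.0741 to 0.801.

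**Figure D2:**
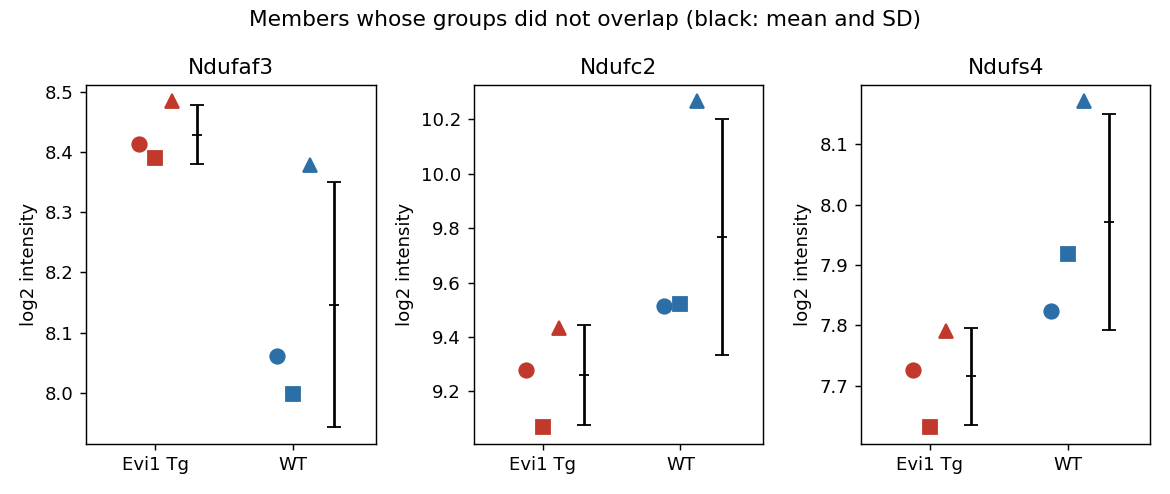
Log2 intensity of the 3 members whose groups did not overlap, Ndufaf3, Ndufc2 and Ndufs4, with 1 point per array, Evi1 Tg left and WT right, and the mean and SD of each group in black. WT 3 is the highest WT array in all 3 panels, 0.35 log2 units above the mean of WT 1 and WT 2 for Ndufaf3, 0.75 for Ndufc2 and 0.30 for Ndufs4.

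The promoters of these 3 genes are shown because they are the members whose groups did not overlap. They are RefSeq sequences of GRCm38.p6, each 300 bases from 250 before to 50 after the gene's start, and capitals mark the motifs searched on both strands. The motifs were GCATGCGC, a core of the palindromic site, for NRF1, CCGGAAG for GABP and other ETS factors, AAGATGGC for YY1 and CCAAT for NF-Y, of which the first 3 factors are known activators of nuclear genes for respiration. The Ndufaf3 window lies at chr9:108567387-108567686 on the minus strand, that of Ndufc2 at chr7:97399753-97400052 on the plus strand and that of Ndufs4 at chr13:114388045-114388344 on the minus strand.
Ndufaf3: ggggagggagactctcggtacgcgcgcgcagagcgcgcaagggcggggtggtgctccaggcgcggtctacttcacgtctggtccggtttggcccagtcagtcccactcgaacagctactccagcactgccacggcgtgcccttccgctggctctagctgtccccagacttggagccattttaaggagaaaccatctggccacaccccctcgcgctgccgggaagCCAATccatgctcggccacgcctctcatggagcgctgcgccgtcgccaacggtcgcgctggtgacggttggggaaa
Ndufc2: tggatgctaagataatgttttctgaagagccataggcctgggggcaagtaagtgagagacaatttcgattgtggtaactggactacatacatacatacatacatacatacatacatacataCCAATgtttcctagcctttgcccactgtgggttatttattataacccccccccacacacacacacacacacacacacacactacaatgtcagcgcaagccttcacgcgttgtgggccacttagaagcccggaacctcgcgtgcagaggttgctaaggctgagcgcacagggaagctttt
Ndufs4: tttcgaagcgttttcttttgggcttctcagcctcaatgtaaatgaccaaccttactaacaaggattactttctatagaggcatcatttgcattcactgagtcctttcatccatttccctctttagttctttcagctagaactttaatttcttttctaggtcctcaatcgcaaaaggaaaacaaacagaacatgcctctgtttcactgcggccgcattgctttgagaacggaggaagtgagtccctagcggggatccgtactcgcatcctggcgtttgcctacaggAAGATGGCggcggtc
The Ndufaf3 window held a CCAAT motif that starts 26 bases before the gene's start, the Ndufc2 window one 129 bases before it, and the Ndufs4 window an AAGATGGC motif 36 bases inside the gene. Promoters were listed for 37 of the 42 members. Of these 37, 5 held the NRF1 motif (13.5%, against 4.06% of 16990 measured genes with a listed promoter), namely Ndufa6, Ndufa8, Ndufa11, Ndufaf4 and Ndufaf5. The YY1 motif was present in 7 (18.9% against 3.64%), namely Ndufa3, Ndufa9, Ndufaf8, Ndufb8, Ndufc1, Ndufs4 and Ndufs7. The ETS motif was present in 6 (16.2% against 12.7%) and CCAAT in 11 (29.7% against 41.6%). No motif was common to the 3 genes printed, and a match in these windows is a description of the letters and not of a bound site.

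The accessory subunits among the members were examined by module. A subunit without a probe set of 1 symbol is not a member and is not counted. In the N module 6 of 6 accessory members had differences below 0, with a median of -0.22. Besides Ndufs4 these were Ndufa6 (-0.30), a subunit of the LYR protein family that binds the mitochondrial acyl carrier protein, Ndufv3 (-0.28), Ndufa7 (-0.19), Ndufa12 (-0.12) and Ndufa2 (-0.10). For Ndufa12 the sign depended on the probe set, since the one not used gave 0.19 and the mean over probe sets 0.036. Ndufa6 had intensities of 246, 216 and 282 in Evi1 Tg and 342, 314 and 263 in WT, so that WT 3 lay between the Evi1 Tg arrays while WT 1 and WT 2 lay above them. The limma adjusted p of Ndufa6 was 0.523, and 0.180 without WT 3.

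In the membrane arm, 3 of 3 ND1 module and 4 of 4 ND2 module subunits above background had differences below 0, with medians of -0.17 and -0.18. Ndufa13, also known as GRIM-19 and studied as a regulator of cell death, had 583, 498 and 508 in Evi1 Tg and 696, 742 and 516 in WT (-0.28 on the log2 scale, with SE 0.15 and, by limma, an adjusted p of 0.595, or 0.0928 without WT 3). WT 3 again lay among the Evi1 Tg arrays. Ndufa8 had a difference of -0.17 (0.041 in the probe set not used), Ndufa3 one of -0.070, Ndufa1, an X-linked subunit, -0.23, Ndufa10 -0.13 and Ndufc1 -0.062. Ndufs5 lay below background on all 6 arrays and was left out of this ND2 count and median. Its difference (-0.18) is included in the counts and medians over the 26 accessory subunits and the 42 members.

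The ND4 and ND5 modules at the far end of the membrane arm were mixed. Of the 4 ND4 members, Ndufb5 (-0.22) and Ndufb6 (-0.15) had differences below 0 and Ndufb10 (0.088) and Ndufb11 (0.17, mean below background) above 0. Among the ND5 members Ndufb9 (-0.17), Ndufb3 (-0.10) and Ndufb7 (-0.053) had differences below 0 and Ndufb8 (0.023) one above. The accessory members of the Q module were Ndufa9 (0.18), which binds a nucleotide cofactor near the ubiquinone site, and Ndufa5 (-0.042). Ndufab1, the mitochondrial acyl carrier protein, had a difference of 0.041, and Ndufa11, a membrane subunit, one of -0.055. These differences were all within 2 SE of 0 and none passed the test. Of the 26 accessory subunits, 13 stayed below 0 and 3 above 0 in every alternative fit that included them.

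**Figure D3:**
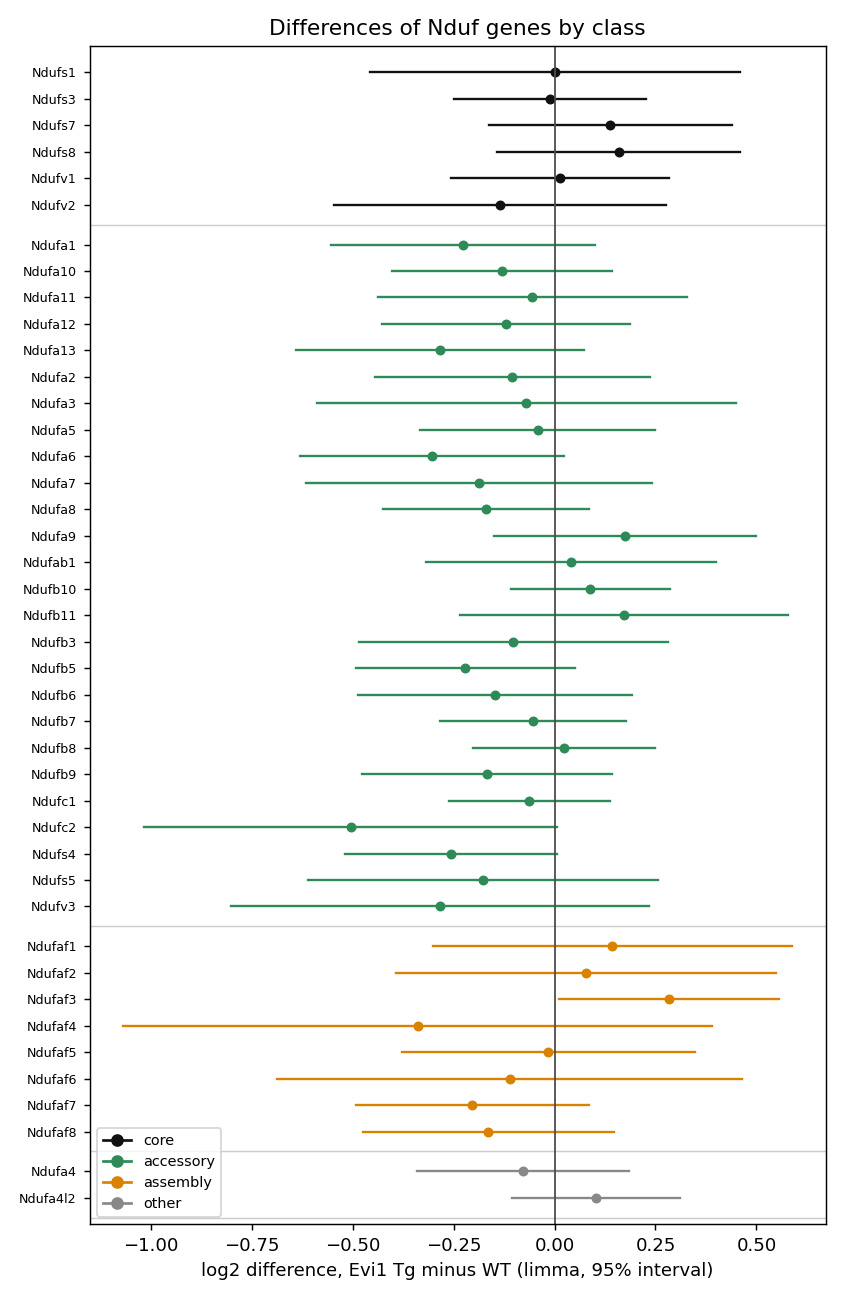
Log2 difference (Evi1 Tg minus WT) of each Nduf gene with its 95% interval from limma, grouped into core subunits (black), accessory subunits (green), assembly factors (orange) and other Nduf genes (grey). The interval excludes 0 for Ndufaf3 alone, before adjustment, and most accessory subunits lie left of 0, with Ndufc2 at -0.51 the farthest.

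In WT the assembly factors varied more between arrays than both classes of subunits. In Evi1 Tg they varied more than the core subunits but less than the accessory subunits. In Evi1 Tg the SD had a median of 0.17 log2 units over the 8 factors, 0.19 over the accessory and 0.14 over the core subunits. In WT the medians were 0.29 over the factors, 0.18 over the accessory and 0.19 over the core subunits. Ndufaf4 had intensities of 231, 291 and 166 in Evi1 Tg and 212, 243 and 440 in WT, and a log2 difference (SE) of -0.34 (0.31) that was -0.021 without WT 3, with an adjusted p of 0.807 by limma over all 6 arrays. Ndufaf6, an early assembly factor, had a difference of -0.11 that turned to 0.18 without WT 3. Ndufaf1, which acts in the assembly of the ND2 module, had a difference of 0.14 (0.31 without WT 3), and Ndufaf2, a late factor for the N module, 0.078 (0.31 without WT 3). Ndufaf5 and Ndufaf7, methyltransferase family proteins that modify Q module subunits, had -0.016 and -0.20 (0.14 and -0.15 without WT 3), and Ndufaf8, a partner of Ndufaf5, had -0.16. The means of Ndufaf2 and Ndufaf5 lay below background. The median over the 8 factors was -0.063, and 0.16 without WT 3.

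Core subunits were compared with accessory subunits and assembly factors within each array, by the median deviation of each class from the 6-array mean. The median difference of the core subunits exceeded that of the accessory subunits by 0.13 log2 units, by 0.053 without WT 1 and by 0.24 without WT 3. Core minus accessory was 0.10, 0.15 and 0.065 in Evi1 Tg 1, 2 and 3, against -0.20, -0.084 and 0.11 in WT 1, 2 and 3. WT 3 thus lay among the Evi1 Tg arrays, as it did for proliferation genes. Core minus assembly was 0.19, -0.059 and -0.028 in Evi1 Tg, against 0.047, 0.18 and -0.24 in WT, with overlap of the groups. Accessory subunits alone had deviations of 0.020, -0.19 and -0.037 in Evi1 Tg, against 0.041, 0.14 and -0.055 in WT. For them Evi1 Tg 2 was the lowest array in 13 of 26 genes (15.3% of all genes and 20.4% of genes above background had it lowest). WT 2 was the highest in 12 of 26 (18.9% of all genes and 17.2% of genes above background). Without Evi1 Tg 2 the accessory median was -0.081 and without Evi1 Tg 1 it was -0.21.

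**Figure D4:**
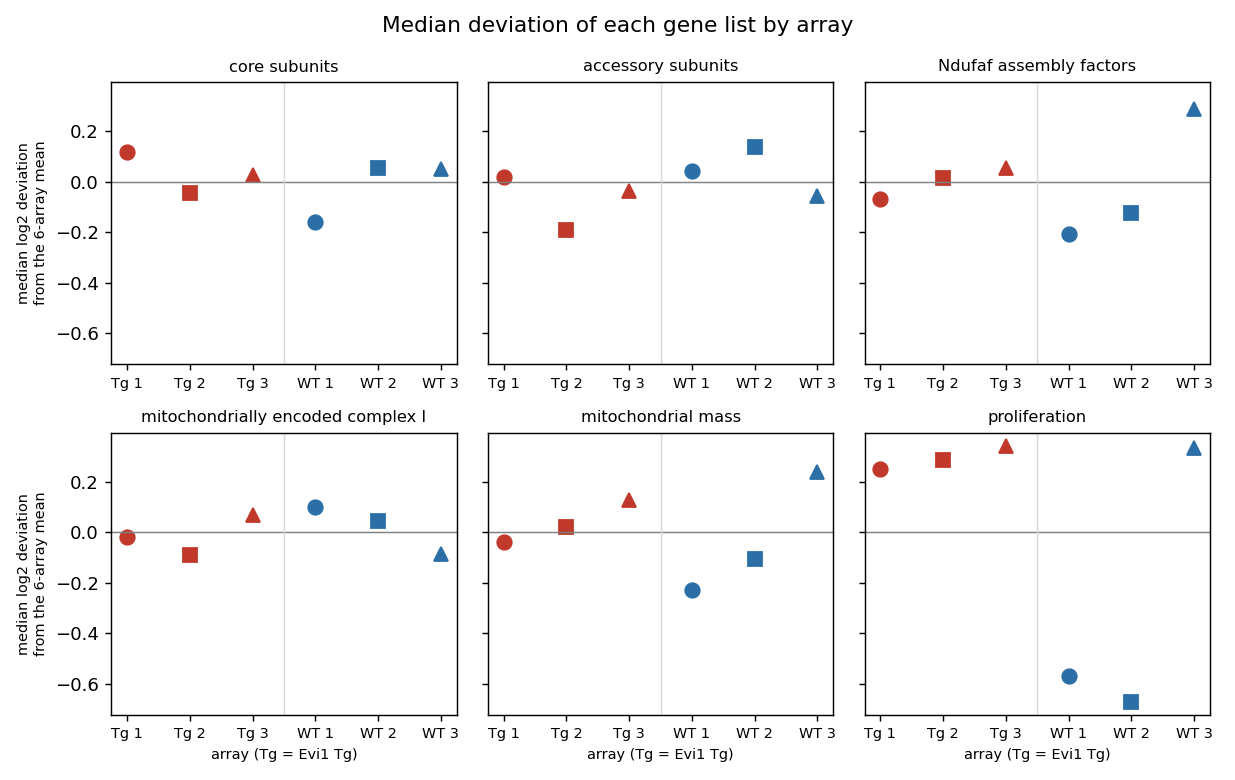
Median log2 deviation from the 6-array mean (vertical axis) of 6 gene lists on each array, Evi1 Tg 1 to 3 in red and WT 1 to 3 in blue. Assembly factors, mitochondrial mass genes and proliferation genes are high in WT 3 (0.29, 0.24 and 0.33) and below 0 in WT 1 and WT 2, while accessory subunits and mitochondrially encoded subunits are below 0 in WT 3 (-0.055 and -0.084).

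The gap between WT 3 and the mean of WT 1 and WT 2 was larger than the difference between the groups in 36 of 42 members (85.7%), against 64.2% of all genes and 65.5% of genes above background. Its direction varied by class. WT 3 lay above in 8 of 8 assembly factors, with a median gap of 0.48 log2 units, in 4 of 6 core subunits, with a median of 0.13, and in 8 of 26 accessory subunits, with a median of -0.16. The highest gaps were those of Ndufaf4 (0.95), Ndufaf6 (0.87) and Ndufc2 (0.75), and the lowest those of Ndufa3 (-0.67) and Ndufv3 (-0.67). WT 3 lay above in 10329 of all 22180 genes. It did so in 6066 of the 9896 genes above background, where the median gap was 0.11.

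Of the other Nduf symbols, Ndufa4, now known as a subunit of complex IV, had a log2 difference of -0.078 (SE 0.11), and Ndufa4l2, its hypoxia-induced paralogue, lay below background on all 6 arrays. Additional probe sets with a single symbol were present for Ndufa8, Ndufa11 and Ndufa12. The one not used gave 0.041 for Ndufa8 against -0.17 for the one used, 0.19 against -0.12 for Ndufa12, and -0.056 against -0.055 for Ndufa11. The probe sets of Ndufa8 and Ndufa12 therefore disagreed in sign. A further 6 probe sets annotated with an Nduf symbol beside another symbol were not used here.

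The 7 subunits encoded by mitochondrial DNA, which form the proton-pumping membrane arm with the nuclear subunits, had differences below 0 in 6 cases and a median of -0.026. mt-Nd3 (ND3 in the annotation) had intensities of 8218, 6310 and 7561 in Evi1 Tg and 9172, 9765 and 9462 in WT. All Evi1 Tg arrays lay below all WT arrays, including WT 3. The difference of the means was -0.37 log2 units (SE 0.11, adjusted p = 0.317 by limma). The other differences were -0.066 for mt-Nd1, -0.026 for mt-Nd2, -0.044 for mt-Nd4, -0.013 for mt-Nd4l, -0.014 for mt-Nd5 and 0.19 for mt-Nd6. The brightest, mt-Nd4, had 12004 to 13453, close to the highest intensity of any probe set per array, 13831 to 14719. Differences may be compressed at such intensities, which was not tested, so values near 0 do not show unchanged transcripts. In this list 0 genes passed by limma and 1 had an unadjusted p under 0.05 (14.3%, against 10.3% of all genes).

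For the lists that follow, 10.3% of all genes and 17.9% of genes above background had an unadjusted p under 0.05. Of 12 measured complex I assembly factors with other symbols, 6 lay above and 6 below 0 and 0 passed by limma. At an unadjusted p under 0.05, 2 were lower (16.7%). These were Dmac1, a factor for the distal membrane arm (-0.42, SE 0.15), and Lyrm2 (-0.53, SE 0.21). Of 12 proteins that bring electrons to ubiquinone by other routes, 0 passed by limma, and at an unadjusted p under 0.05 there were 2 higher and 1 lower. Dhodh, the pyrimidine synthesis enzyme, had 0.39 (SE 0.12) and the sulphide oxidase Sqor -0.57 (SE 0.18). Among 10 genes of iron-sulphur cluster assembly 4 lay above and 6 below 0, and 0 passed by limma, with 0 at an unadjusted p under 0.05. Their leading members were Lyrm4 (0.19) and Nfu1 (-0.26). Of 13 regulators of mitochondrial biogenesis 0 passed by limma and 1 was higher at an unadjusted p under 0.05 (7.69%). This was the coactivator Pprc1 (0.41, SE 0.092, limma adjusted p = 0.198), followed by Nrf1 (0.27). Of 18 genes taken as measures of mitochondrial mass 0 passed by limma and an unadjusted p under 0.05 was found for 2 (11.1%). Both lay above 0, the import pore Tomm40 (0.43) and the chaperonin Hspe1 (0.27), and the median of the list was 0.078. The median deviation of that list was -0.039, 0.021 and 0.13 in Evi1 Tg and -0.23, -0.10 and 0.24 in WT, with WT 3 highest. The part of proliferation and of WT 3 in these values was not tested.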

How the data were processed

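Total RNA of sorted cells was converted to biotinylated cDNA (GeneChip WT PLUS reagents), per the labels' protocols. For each probe set and array the authors deposited an intensity value, and the values show a linear scale. How they were corrected, normalized and summarised was not given in any source used here. Of 34351 probe sets, 23521 had 1 symbol in the platform annotation, and 23328 of these were found by Entrez identifier in RefSeq (GRCm38.p6), with 0 renamed. The probe set with the highest mean log2 value represented each of 22180 genes, with no filter and no pseudocount.

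Evi1 Tg was compared with WT (n = 3 each) with limma 3.58.1 (lmFit, eBayes; R 4.3.3), and p-values were adjusted by Benjamini-Hochberg over the 22180 genes, with a threshold of 0.05. The procedure was tested on simulated data. Members were not ranked by level, since probe sets differ in response, so the brightest and dimmest 3, which the naming rule also holds, were not given. Per-array values were given for core subunits, members with an unadjusted p under 0.05 and members without overlap, and, chosen after their values were seen, for Ndufa6, Ndufa13, Ndufaf4 and mt-Nd3. The members, lists and classes were chosen with earlier results of these data known. With 3 arrays per group the smallest two-sided p of an exact permutation test is 0.10. The replicate numbers were checked for pairing by correlating deviations from group means, which gave 0.19, -0.18 and 0.061 for numbers 1, 2 and 3, so the numbers were not taken as pairs. The settings varied were the normalization (quantile, or median centring), a filter that left dim genes out, log2 of intensity plus 16, eBayes with trend and robust options, the replicate number as a block, probe sets averaged per gene, Ndufa4 and Ndufa4l2 counted as accessory, and each array left out. Figures were drawn with matplotlib 3.10.9.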

Additional observations from a re-analysis of the deposited data

How the results depend on the processing

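No Nduf gene was called in any of 13 alternatives, and the median differences of all members (-0.13 to -0.031), core subunits (-0.054 to 0.071) and accessory subunits (-0.21 to -0.081) moved by less than the replicate SD. Leaving out 1 array moved the assembly factor median between -0.17 and 0.16, the upper value without WT 3. Over all genes 23 were called lower and 2 higher. Leaving out 1 array gave 2 to 173 lower and 0 to 383 higher, log2(intensity + 16) gave 9 and 0, the replicate block 9 and 0, and 6 were higher with dim genes left out or with trend and robust eBayes. Members lower at an unadjusted p under 0.05 numbered 2 with quantile normalization and with the replicate block, 1 with log2(intensity + 16) and with trend and robust eBayes, and 0 to 4 with 1 array left out. With quantile normalization and with the replicate block 7.14% of members had such a p in either direction, against 11.3% and 11.1% of all genes. Those higher numbered 0 with median centring, dim genes left out or trend and robust eBayes, and 0 to 2 with 1 array left out. Groups did not overlap in 2 to 9 lower and 1 to 4 higher members with 1 array left out (9.52% to 31.0% of members, 21.2% to 32.3% of all genes). Signs turned in at least 1 alternative for 17 of 42 members, namely 4 core subunits, 10 accessory subunits and 3 assembly factors. Ndufs1 had -0.0084 with median centring and -0.14 to 0.21 with 1 array left out, Ndufv1 -0.066 to 0.098, Ndufv2 -0.27 to 0.058 and Ndufs3 -0.071 to 0.061. The cause was not tested. Signal near background limits 5 members, and 3 arrays per group limit all of them.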
